A study of Mus musculus with 5 samples.

Results

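Most of the genes studied here encode subunits of voltage-gated and potassium channels in the mouse heart. A gene was taken as a member when its annotated symbol begins with Kcn (potassium channels), Cacn (voltage-gated calcium channels), Scn (voltage-gated sodium channels) or Hcn (hyperpolarization-activated cation channels). The rule took 121 of the 18193 genes named on the array, and the brightest of a gene's probe sets, by its mean over all 5 arrays, stood for it. The rule uses only the symbol and the brightness. RNA came from the hearts of untreated female mice that had been bled and perfused with 0.9% NaCl. The first group holds 3 NZB_W mice aged 12 to 15 weeks with lupus nephritis and moderate kidney injury by Austin scoring, and the second holds 2 healthy NZW mice of matched age. NZB_W and NZW are different genotypes, so strain and disease cannot be told apart. All values are the deposited log2 levels, 1 per probe set and array, and p-values measure the spread between these 5 arrays, which the titles call biological replicates.

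Ion channels set the heartbeat by letting sodium, calcium and potassium cross the muscle cell membrane in turn. Sodium channels start the action potential, L-type calcium channels hold its plateau and trigger contraction, and several kinds of potassium channel end it or hold the resting potential. A pore subunit forms the conducting path, and an auxiliary subunit (beta, alpha2delta, KCNE or KChIP proteins) alters how the pore opens or how much of it reaches the surface. In the mouse, fast repolarization rests mainly on Kv4 and Kv1 channels, while acetylcholine-activated channels of the GIRK type are concentrated in the atria and the nodes.

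Of the 121 members, 50 lay above the median of the array on all 5 arrays (41.3%), 8 on 1 to 4 arrays and 63 on none, while 11365 of all 18193 genes (62.5%) lay above it on all 5. By ion and role, 28 of 66 potassium pore genes were above on all 5 arrays, 6 of 15 potassium auxiliary genes, 5 of 9 calcium pore genes, 7 of 15 calcium auxiliary genes, 1 of 8 sodium pore genes, 1 of 3 sodium auxiliary genes and 1 of 2 HCN genes. The remaining 3 members have neither role. Kcnq1ot1, a noncoding RNA, was above on all 5 arrays, and the antisense transcripts Kcnmb4os1 and Kcnmb4os2 on none. The Kv4 family was above on all 5 arrays in 3 of 3 genes and the T-type calcium channels (Cav3) in 2 of 2. By contrast, 4 of 12 K2P background channels and 2 of 9 electrically silent Kv subunits were. The brightness of a probe set depends on its probes, so these counts do not rank one gene's abundance against another's.

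The brightest member of each class was Cacna2d1, an alpha2delta subunit, among calcium auxiliary genes, Kcnip2, the KChIP partner of Kv4 pores, among potassium auxiliary genes, Kcnk3, a background channel, among potassium pores, Cacna1c, the L-type pore of ventricular muscle, among calcium pores, Scn7a, a sodium-sensing relative of the voltage-gated pores, among sodium pores, Scn4b among sodium auxiliary genes, and Hcn2, a pacemaker-current pore, among HCN genes. Of 25 members analysed from a list of channels central to cardiac excitability, 21 passed the brightness filter, a probe set above the median on at least 2 arrays. Cacna1d, Kcna4, Kcnj2 and Kcnk1 did not pass. Kcnj2, the main inward rectifier pore of ventricular muscle, read only 3.18 to 3.46, against a mean array median of 4.64. Near the threshold, Kcna2 averaged 0.0096 above the mean array median and Scn3b 0.11 above it, while Kcnk13 averaged 0.022 and Kcnt1 0.024 below it.

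**Figure D1:**
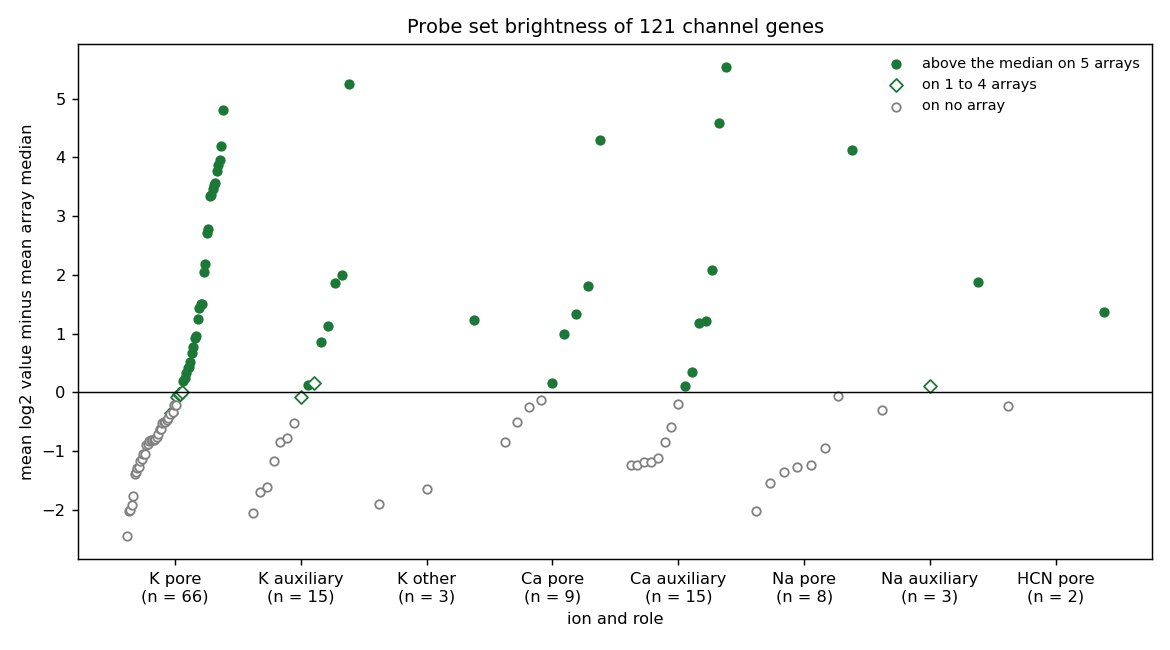
Mean log2 level over 5 arrays minus the mean array median (vertical axis, log2 units) for the 121 channel genes, by ion and role. Filled points were above the median on all 5 arrays (50 genes), diamonds on 1 to 4 (8 genes) and open grey points on none (63 genes); most sodium pore genes sit below the median, and calcium and potassium genes span both sides.

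Before the comparison, markers of the tissue were read on each array. Cardiomyocyte markers were steady, with a list mean of 13.4 to 13.5 on the 5 arrays. Atrial markers were not. Myl7, the atrial light chain, read 3.87, 10.2 and 13.0 in NZB_W (arrays 1, 2 and 3, in this order throughout) and 13.1 and 4.76 in NZW (arrays 1 and 2), and Myl4 and Sln ran the same way, as the mean of the 6 atrial markers did (6.47, 9.14 and 10.7 against 11.1 and 6.55). High and low arrays occur in both groups. Summed on the linear scale, the list ran from 10560 to 33420 in NZB_W and from 7417 to 33220 in NZW. This sum is weighted to Nppa, the brightest of the list on each array. Nppa read 13.3, 13.2 and 14.0 in NZB_W and 13.7 and 12.8 in NZW. Its range over the 5 arrays was 1.19, beside 9.27 for Myl7. In RNA from heart tissue, fewer cells of a type and less RNA per cell cannot be told apart. The labels do not say which chambers were taken, or whether the same ones were taken from each heart.

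Other marker lists were less uneven. NZB_W array 3 had the highest means for fibroblast markers (10.7, against 9.47 to 9.97 elsewhere), macrophage markers (9.10, against 7.75 to 8.25) and smooth muscle and pericyte markers (8.96, against 8.19 to 8.34). Endothelial markers averaged 8.21 to 8.57 and skeletal muscle markers 5.63 to 5.84. Neuron and glia markers averaged 4.72 to 4.77, close to the array median, with 3 of the 9 on the array above it on none. Red blood cell markers (3 on the array) averaged 5.26 to 7.12 in NZB_W and 4.74 and 4.59 in NZW. Correlations between arrays ran from 0.972 to 0.993.

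The design asks which channel genes differ between hearts of nephritic NZB_W mice and healthy NZW mice. No member passed limma's test at an adjusted p of 0.05, where 1 of 11902 genes did (0.0084%), or at 0.1, where 5 did (0.042%). Of the 121 members, 54 passed the brightness filter and were tested; Kcnt1 alone passed through a single group, NZW. The adjusted p of the members ran from 0.588 to 1. At an unadjusted p under 0.05, Kcna5, Kcne1 and Kcnn4 were higher in NZB_W (3 of 54, or 5.56%, beside 2.51% of all genes tested) and Kcna1 and Kcnn2 lower (2 of 54, or 3.7%, beside 3.03%). The groups did not overlap in 6 members that were higher (11.1%, beside 7.6% of all genes) and in 9 that were lower (16.7%, beside 9.83%), among them Kcnt1, which had to differ because it passed the filter only where it was higher. A difference of over 0.5 in either direction was met by 6 members (11.1%, beside 3.52% of all genes), Kcne1 upward and Cacna1h, Kcnv2, Kcnj3, Scn4b and Kcnn2 downward.

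By sign alone, 23 members were higher in NZB_W (42.6%, beside 45.2% of all genes), 30 were lower (55.6%, beside 54.3%) and Kcnj6, which read the same on all 5 arrays, was neither. Their median difference was -0.029, beside -0.014 over all genes tested. Pore genes divided as 11 higher and 25 lower with a median of -0.079, whereas all 85 pore genes without the filter divided as 40 and 44 with a median of -0.01. Between NZB_W array 1 and NZW array 2 alone, the tested pore genes divided as 13 and 19. Auxiliary genes divided as 12 higher and 4 lower with a median of 0.037, but without NZW array 2 the auxiliary genes divided as 8 and 7. The 7 tested potassium auxiliary genes were all higher by sign (median 0.11), and they stayed so under quantile normalization and median centring, although 6 of 7 were without NZW array 1 and likewise without NZW array 2, and 4 of 7 between NZB_W array 3 and NZW array 1 alone. Without the filter, 12 of 15 potassium auxiliary genes were higher and 3 lower. Among the 7 tested ones, Kcnip1, Kcnip2 and Kcnip3 differed by only 0.034, 0.040 and 0.053. Kcnab2 read 4.84 on every NZB_W array, beside 4.86 and 4.58 in NZW. The calcium pore genes divided as 1 higher and 4 lower (median -0.15). The calcium auxiliary genes divided as 4 higher and 3 lower (median 0.014, and -0.11 without NZW array 2). These are counts over members and no test of a class was made.

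**Figure D2:**
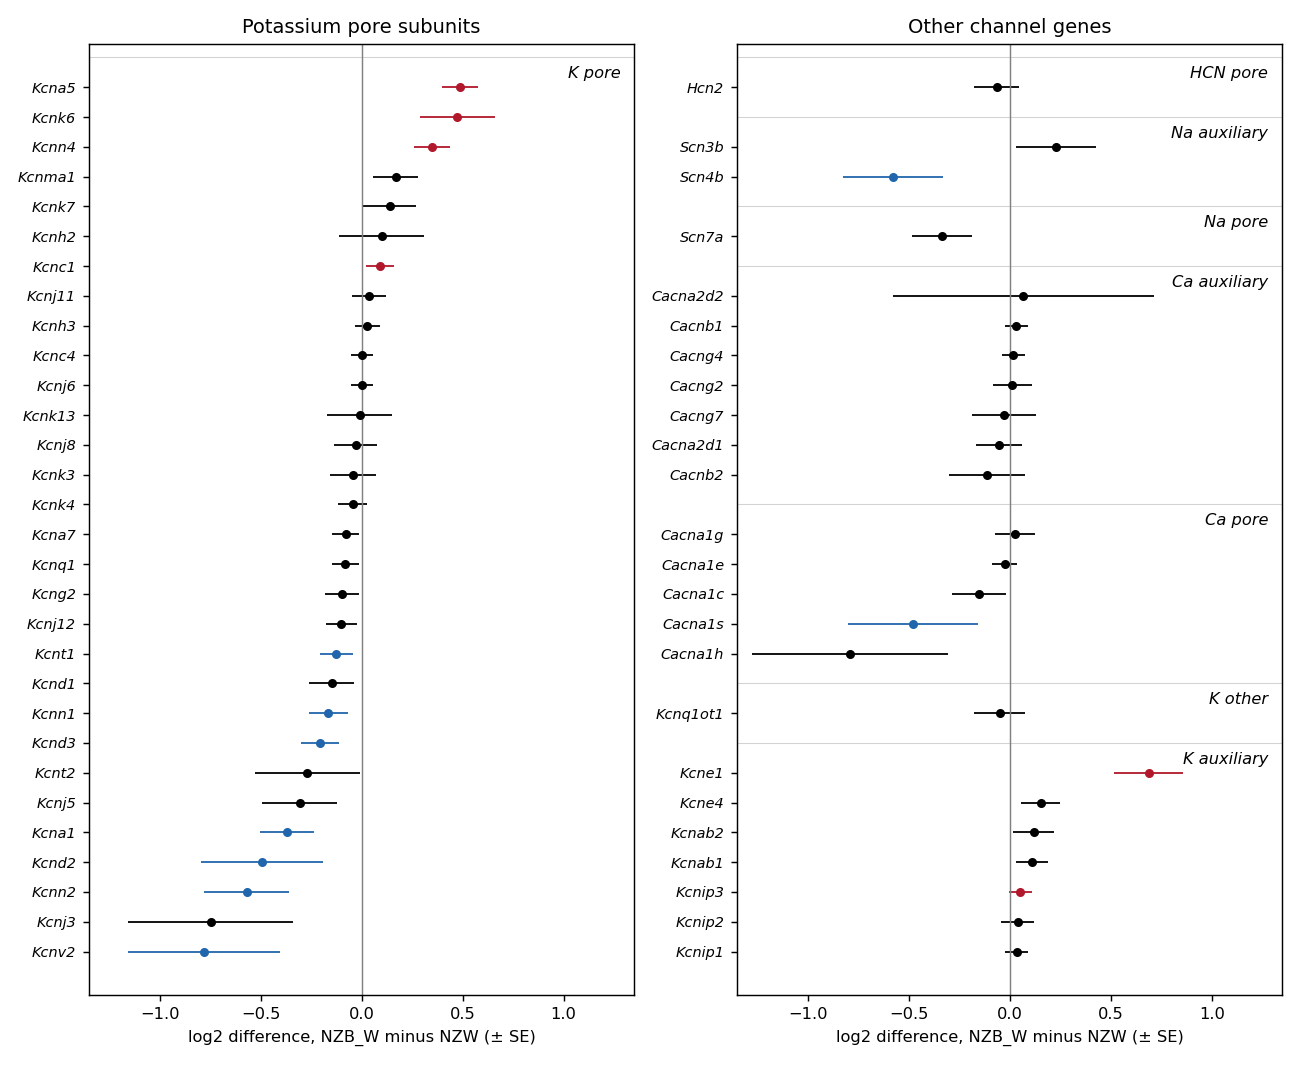
Log2 difference, NZB_W minus NZW, with its moderated SE (bars) for the 54 tested channel genes, by ion and role. Red marks the 6 genes whose 3 NZB_W values all lie above both NZW values, blue the 9 whose values all lie below, and black the genes whose groups overlap; 0 of the 54 passed the adjusted threshold.

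Kcna5, the Kv1 pore of the ultrarapid delayed rectifier, had the smallest p of any member. It read 8.80, 8.71 and 8.61 in NZB_W and 8.29 and 8.15 in NZW. The NZB_W values lay above both NZW values, and the spread within each group was narrow: 8.71 ± 0.098 (SD, n = 3) against 8.22 ± 0.098 (SD, n = 2). The difference was 0.49 (SE 0.09, 95% interval 0.25 to 0.72), or 1.40-fold, with an unadjusted p of 0.0035 and a limma adjusted p of 0.588. It stayed between 0.42 and 0.56 with any single array left out. Another Kv1 pore, Kcna1, best known from neurons, ran the other way at a dimmer level. It read 6.03, 6.07 and 5.70 in NZB_W against 6.35 and 6.25 in NZW, without overlap, and the difference was -0.37 (SE 0.14, limma adjusted p = 0.859). Its 2 other probe sets above the median differed by -0.18 and -0.50. Neuron and glia markers averaged 4.74, 4.74 and 4.77 in NZB_W and 4.74 and 4.72 in NZW, close to the array median. Their part in the Kcna1 value was not tested. The muscle Kv1 pore Kcna7 differed by -0.079.

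Delayed rectifiers of the KCNQ1 type pair a pore with a KCNE subunit. Kcne1, the auxiliary subunit of the slow delayed rectifier, read 6.47, 6.89 and 6.95 in NZB_W and 6.01 and 6.16 in NZW. All NZB_W arrays were above both NZW arrays. The difference was 0.69 (SE 0.17, 95% interval 0.24 to 1.13), or 1.61-fold, with an unadjusted p of 0.0111 and a limma adjusted p of 0.75, and a dimmer Kcne1 probe set differed by 0.24, with overlap. Its pore partner Kcnq1 lay at 7.91 to 7.96 in NZB_W and 7.96 to 8.09 in NZW, a difference of -0.08 (95% interval -0.26 to 0.1) that was -0.014 without NZW array 1 and -0.15 without NZW array 2. Kcnh2, the pore of the rapid delayed rectifier, differed by 0.1 with a wide interval (-0.45 to 0.65), since its NZW arrays read 8.67 and 8.03, and by -0.22 without NZW array 2. Kcne4, another KCNE subunit, differed by 0.15 (SE 0.097) with overlapping groups, and by 0.10 without NZB_W array 1.

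The transient outward current of mouse ventricle runs through Kv4 pores. The promoter of Kcna5 is shown as that of the member with the smallest p, and that of Kcnd2 as that of the Kv4 pore with the widest difference. Sequences are the 250 bases before the annotated start, from RefSeq on GRCm38.p6, written 5′ to 3′ on the gene's strand. That of Kcna5 spans chr6:126535556-126535805 (minus strand), with 3 CpG dinucleotides and 53.2% GC, and that of Kcnd2 spans chr6:21215096-21215345 (plus strand), with 22 CpG and 68.8% GC. The median over 32851 promoters was 6 CpG and 52.4% GC, and over 127 promoters of 92 members 8 CpG and 58.0% GC.
Kcna5: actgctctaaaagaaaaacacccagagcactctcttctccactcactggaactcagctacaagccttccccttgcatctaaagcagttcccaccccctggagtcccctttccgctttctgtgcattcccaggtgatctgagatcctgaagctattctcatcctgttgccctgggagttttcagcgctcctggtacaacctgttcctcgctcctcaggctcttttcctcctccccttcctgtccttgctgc
Kcnd2: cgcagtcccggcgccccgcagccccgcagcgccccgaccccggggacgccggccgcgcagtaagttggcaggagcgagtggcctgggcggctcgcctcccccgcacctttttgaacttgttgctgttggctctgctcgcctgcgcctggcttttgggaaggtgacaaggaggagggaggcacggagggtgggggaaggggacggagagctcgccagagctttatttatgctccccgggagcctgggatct
On either strand, both windows lack the letters TATAAA of the TATA box, which occur in 12.4% of all promoters of this length and in 3.94% of the members' promoters. They also lack the motif AGATAA bound by GATA factors, present in 9.99% of all and 3.15% of the members' promoters. The half-site AGGTGT of T-box factors, present in 11.8% of all and 12.6% of the members' promoters, is likewise not among their letters.

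The 3 tested Kv4 pores were all lower in NZB_W by sign, under each normalization tried and with Kcnd1 turning without NZW array 2 and in the pair of arrays with high atrial markers. Kcnd2, the Kv4 pore most tied to the fast transient outward current, read 7.95, 8.19 and 7.23 in NZB_W and 8.30 and 8.26 in NZW. The groups did not overlap, but NZB_W array 3 lay far below the other 4 arrays. The difference was -0.49 (SE 0.3, 95% interval -1.29 to 0.3, limma adjusted p = 0.859), and -0.21 without that array. Its 2 other probe sets above the median differed by -0.70 (SE 0.34) and -0.67 (SE 0.27). Kcnd3 was steadier. It read 7.26, 7.48 and 7.27 in NZB_W against 7.54 on both NZW arrays, a difference of -0.21 (SE 0.093) without overlap, and its other probe set above the median differed by -0.06. Kcnd1 differed by -0.15, with overlap. The partner Kcnip2 ran from 9.79 to 9.96 in NZB_W and from 9.81 to 9.90 in NZW, a difference of 0.04 (95% interval -0.18 to 0.26).

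Kcnv2, an electrically silent subunit that modifies other Kv pores, shared the low reading on NZB_W array 3. It read 6.17, 6.17 and 5.16 in NZB_W and 6.38 and 6.84 in NZW, a difference of -0.78 (SE 0.38, limma adjusted p = 0.859) that was -0.45 without NZB_W array 3. The other tested silent subunit, Kcng2, differed by -0.096. On NZB_W array 3, cardiomyocyte markers averaged 13.5, as on the other arrays, while fibroblast, macrophage and atrial markers were high. Atrial markers were as high on NZW array 1, where Kcnd2 read 8.30 and Kcnv2 6.38. The part of the fibroblast, macrophage or atrial signal in these readings was not tested.

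**Figure D3:**
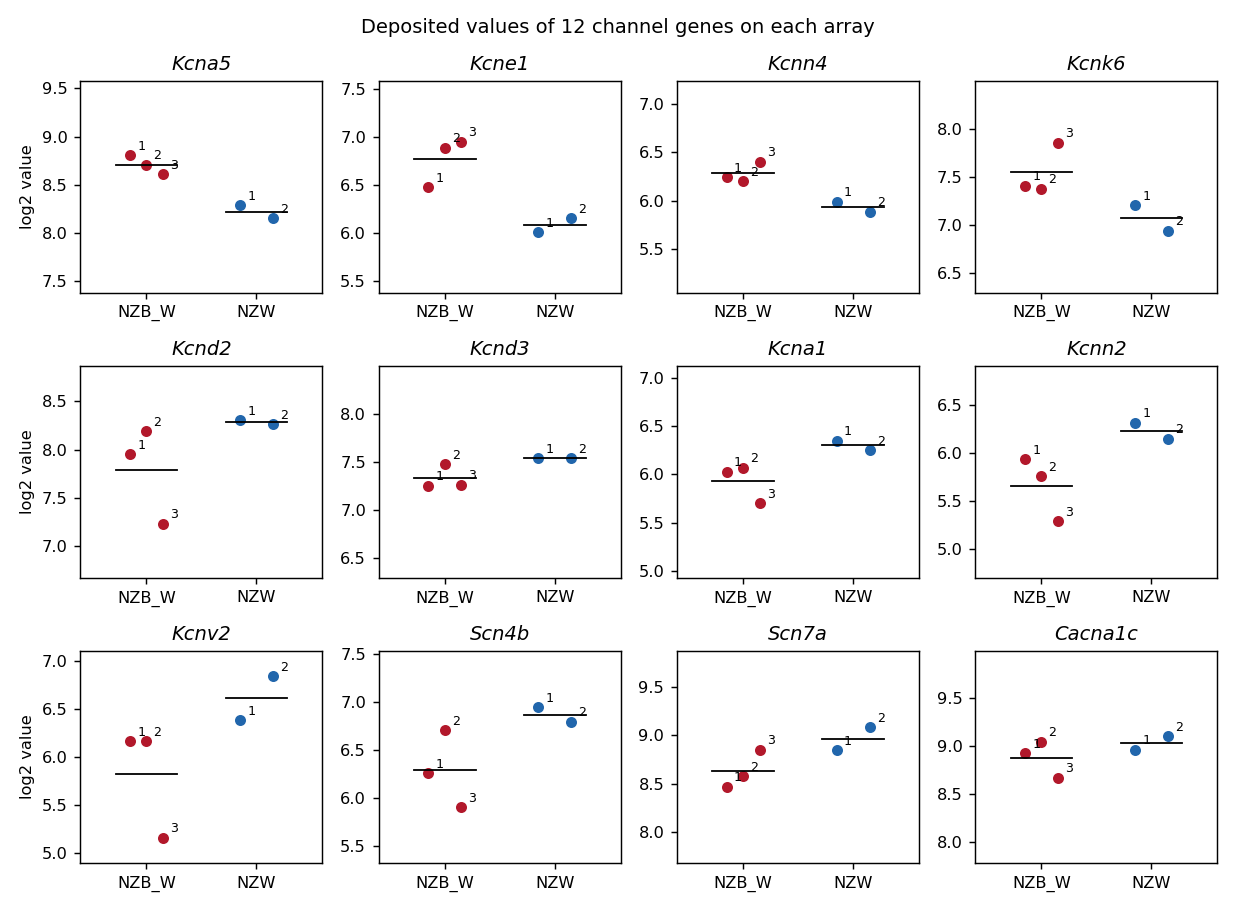
Log2 level on each array for the leading channel genes, with points labelled by replicate number, the group mean as a line and every vertical axis spanning 2.2 log2 units. Kcna5 and Kcne1 show all NZB_W points above the NZW points, while in Kcnd2 and Kcnv2 array 3 lies well below the other NZB_W arrays.

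Among calcium-activated potassium pores, Kcnn4, the intermediate-conductance channel of blood cells and fibroblasts, read 6.24, 6.20 and 6.40 in NZB_W and 5.99 and 5.88 in NZW. The groups did not overlap, and the difference was 0.35 (SE 0.089, limma adjusted p = 0.765), or 1.27-fold. Macrophage markers ran in nearly the same order over the arrays (8.23, 8.25 and 9.10 against 8.03 and 7.75). Red blood cell markers ran in the same order as Kcnn4 (6.68, 5.26 and 7.12 against 4.74 and 4.59), carried by Alas2 and Slc4a1, whose groups did not overlap. The part of either cell type in the Kcnn4 value was not tested. Kcnn2, a small-conductance channel of atrial and other muscle, ran the opposite way. It read 5.93, 5.76 and 5.29 in NZB_W and 6.31 and 6.15 in NZW, a difference of -0.57 (SE 0.21, limma adjusted p = 0.859), or 1.48-fold lower, and -0.38 without NZB_W array 3. The large-conductance pore Kcnma1, abundant in smooth muscle, differed by 0.17 with overlap, and by 0.086 without NZB_W array 1 and 0.099 without NZW array 2. Kcnn1, close to the array median, read 4.81 on all 3 NZB_W arrays and 4.84 and 5.11 in NZW. It differed by -0.17 without overlap. Kcnn1, Kcnc1, Kcnip3 and Cacna1s are named for that lack of overlap, and Cacna2d2 and Kcnt2 for their range over the arrays, after their values were seen.

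K2P channels pass the background potassium current. Kcnk6 read 7.41, 7.38 and 7.85 in NZB_W and 7.21 and 6.94 in NZW, with no overlap, and the difference was 0.47 (SE 0.19, limma adjusted p = 0.859), or 1.39-fold and 0.32 without NZB_W array 3. The same macrophage and red blood cell marker values stand beside it, the latter in the same array order as Kcnk6. The part of either cell type in the Kcnk6 value was likewise not tested. Kcnk3, bright on all arrays, differed by -0.044 (95% interval -0.35 to 0.26). The remaining higher members without overlap were Kcnc1, a Kv3 pore, at 0.091, and Kcnip3, a KChIP, at 0.053.

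Kcnj3 and Kcnj5 encode the subunits that join as the GIRK channel, which acetylcholine opens in atrial and nodal cells. Their promoters are shown because both genes ran in the same order over the 5 arrays. They span chr2:55435720-55435969 (plus strand) and chr9:32344345-32344594 (minus strand), each with 7 CpG, and capitals mark a T-box half-site read on the opposite strand, 38 bases before the start of Kcnj3.
Kcnj3: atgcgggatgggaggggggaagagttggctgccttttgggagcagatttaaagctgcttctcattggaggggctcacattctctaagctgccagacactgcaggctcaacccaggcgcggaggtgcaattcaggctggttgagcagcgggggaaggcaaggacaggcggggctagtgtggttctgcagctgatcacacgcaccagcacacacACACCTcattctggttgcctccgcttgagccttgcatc
Kcnj5: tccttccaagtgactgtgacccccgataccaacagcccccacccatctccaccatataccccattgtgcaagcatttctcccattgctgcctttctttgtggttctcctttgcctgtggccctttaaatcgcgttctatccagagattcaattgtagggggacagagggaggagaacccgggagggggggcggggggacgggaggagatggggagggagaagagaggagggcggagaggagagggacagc
No other letters of the motifs named above occur in either window, and the match is a description of sequence only.

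Kcnj3 read 7.80, 8.22 and 8.84 in NZB_W and 9.47 and 8.60 in NZW. Within each group its order was that of the atrial markers, and the groups overlapped. The difference was -0.75 (SE 0.41, 95% interval -1.82 to 0.33), -1.18 without NZW array 2 and -0.31 without NZW array 1. Kcnj5 followed the same order at 7.73, 7.99 and 8.21 against 8.46 and 8.11, with a difference of -0.31 (SE 0.19) that was -0.13 without NZW array 1. When the arrays were set in pairs of like atrial marker level, Kcnj3 differed by -0.80 between NZB_W array 1 and NZW array 2, both low, and by -0.63 between NZB_W array 3 and NZW array 1, both high. For Kcnj5 these differences were -0.38 and -0.25. Each pair is 1 array against 1 and has no replicate check. With the atrial marker mean as a covariate, the Kcnj3 difference was -0.74 with a smaller SE (0.12, limma adjusted p = 0.836 with 2 residual degrees of freedom), and that of Kcnj5 was -0.30 (SE 0.077).

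**Figure D4:**
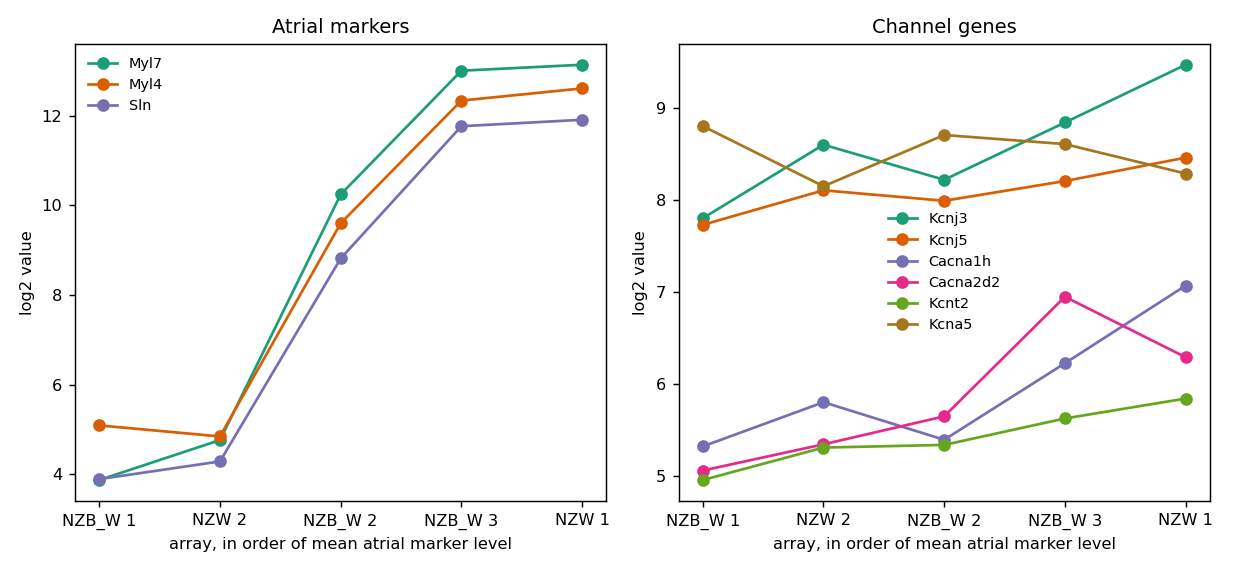
Log2 level on the 5 arrays, ordered along the horizontal axis by rising atrial marker mean. The order is NZB_W 1, NZW 2, NZB_W 2, NZB_W 3, NZW 1. The left panel shows Myl7, Myl4 and Sln, and the right Kcnj3, Kcnj5, Cacna1h, Cacna2d2, Kcnt2 and Kcna5. Within each group Kcnj3 and Kcnj5 are higher where atrial markers are higher, while Kcna5 is not; Kcnj3 reads 7.80 on NZB_W array 1 and 9.47 on NZW array 1.

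The other inward rectifiers had narrower ranges. Kcnj11 and Kcnj8, pores of ATP-sensitive channels, differed by 0.037 (95% interval -0.18 to 0.25) and -0.03 (-0.32 to 0.26). Kcnj12, a strong inward rectifier, differed by -0.1 (-0.3 to 0.097). Leaving out NZW array 1 gave -0.018 for Kcnj12, and leaving out NZW array 2 gave -0.18.

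Among calcium pores, Cacna1c read 8.92, 9.04 and 8.67 in NZB_W and 8.96 and 9.10 in NZW. The groups overlapped and the difference was -0.15 (95% interval -0.5 to 0.2), although its other probe set above the median differed by -0.43 (SE 0.14). Without NZB_W array 3 the Cacna1c difference was -0.044, without NZW array 2 -0.080 and without NZB_W array 2 -0.23. Cacna1h, a T-type pore, had the widest difference of any member by size, at -0.79 (SE 0.49). It read 5.32, 5.40 and 6.23 in NZB_W against 7.07 and 5.80 in NZW, overlapping and in the order of the atrial markers within each group. The difference was -0.16 without NZW array 1 and -1.42 without NZW array 2. Within the low and high atrial pairs it was -0.48 and -0.84, and with the covariate -0.77 (SE 0.22). Cacna1g, the other T-type pore, differed by 0.027. Cacna1s, the pore of skeletal muscle, read 5.67, 5.83 and 4.84 in NZB_W and 5.86 and 5.99 in NZW, a difference of -0.48 that was -0.18 without NZB_W array 3. Of the 8 skeletal muscle markers, 6 were above the array median on none of the arrays, and Acta1 and Ckm, which the heart also expresses, were above it on all 5. Their part in the Cacna1s value was not tested.

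Calcium auxiliary genes gave small differences. Cacnb2, the main cardiac beta subunit, differed by -0.11 (95% interval -0.61 to 0.39) and Cacna2d1 by -0.054 (-0.35 to 0.24), although another Cacna2d1 probe set differed by -0.43 (SE 0.12). Cacna2d2 had the largest SE of any tested member (0.64 for a difference of 0.068), with values of 5.06, 5.65 and 6.95 in NZB_W and 6.29 and 5.35 in NZW. It was -0.28 in the low atrial pair and 0.66 in the high one, opposite in sign. Kcnt2, a sodium-activated potassium pore, also followed the atrial order, with 4.96, 5.34 and 5.63 against 5.84 and 5.31. Within each group, Kcnh2, Kcnk3, Scn3b and Cacna1g had that order too. The share of all genes with this order was not counted.

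Of the sodium channel genes, Scn4b, a beta subunit of voltage-gated sodium channels, read 6.26, 6.71 and 5.91 in NZB_W and 6.94 and 6.79 in NZW. The groups did not overlap, and the difference was -0.58 (SE 0.25, limma adjusted p = 0.859), or 1.49-fold lower, and -0.39 without NZB_W array 3. Scn7a read 8.47, 8.58 and 8.85 in NZB_W and 8.85 and 9.08 in NZW, overlapping at NZB_W array 3, for a difference of -0.33 (SE 0.15) that was -0.21 without NZW array 2. Its dimmer probe sets differed by -0.12 and 0.11. Hcn2 differed by -0.065 (95% interval -0.36 to 0.23).

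Of the 14 members that differed by over 0.3, 13 kept their sign in both atrial pairs, and Scn7a did not (-0.62 and 0.007). Over all genes of that size 85.4% of 1233 kept theirs, and the pairs use the same arrays as the comparison itself. Kcna5 differed by 0.65 and 0.32 in the low and high pair, Kcne1 by 0.32 and 0.94, and Kcnd2 by -0.31 and -1.07. With the covariate, 9 members (16.7%) had an unadjusted p under 0.05 beside 5.6% of all genes, and none passed the adjusted threshold. Outside the chosen probe sets, 28 further probe sets above the median belonged to 18 of the tested genes, and 22 of them had the same sign as the chosen one.

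**Figure D5:**
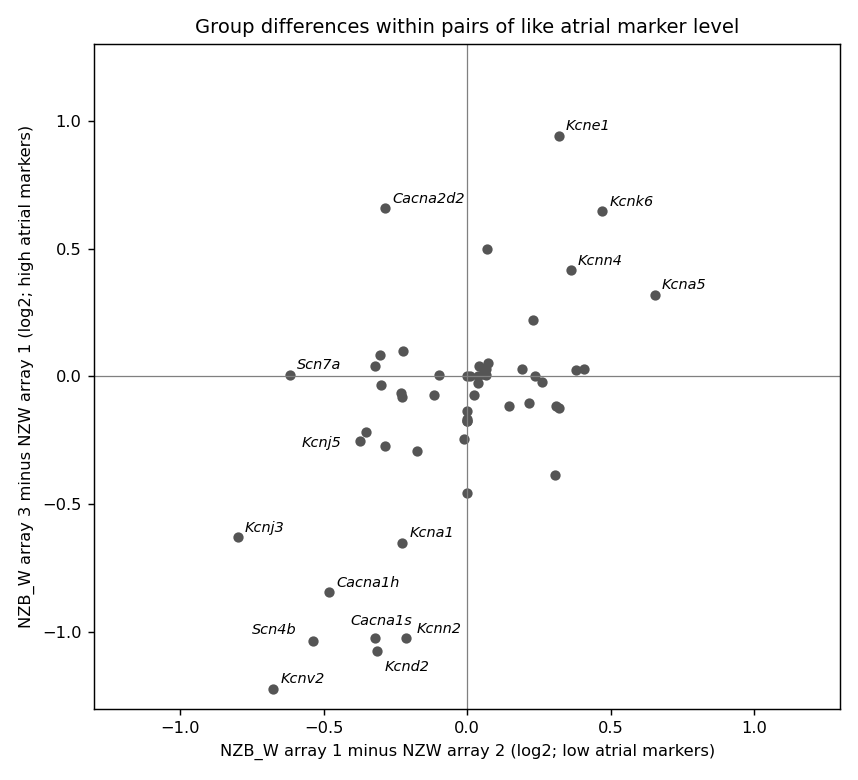
Log2 difference in the low atrial pair (NZB_W array 1 minus NZW array 2, horizontal axis) against that in the high atrial pair (NZB_W array 3 minus NZW array 1, vertical axis) for the 54 tested channel genes, 1 point a gene. Kcna5, Kcne1, Kcnn4 and Kcnk6 lie at positive values on both axes, Kcnv2, Scn4b and Kcnj3 at negative values on both, and Cacna2d2 at -0.28 and 0.66.

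Channel function also depends on partners outside these families. Of 28 listed partners and regulators, 22 were on the array and 19 were tested, 8 higher and 11 lower by sign with a median of -0.028, and none passed the adjusted threshold. Abcc9, the sulfonylurea receptor that joins the ATP-sensitive pores, read 11.0, 10.9 and 10.7 in NZB_W and 11.2 and 11.4 in NZW. The groups did not overlap, the difference was -0.39 (SE 0.13, limma adjusted p = 0.859), and its other probe sets differed by -0.35 and -0.65. Akap9, the scaffold of the slow delayed rectifier, differed by -0.20 (SE 0.073), and Rrad, an inhibitor of L-type channels, by -0.43 (SE 0.2), or -0.27 without NZW array 1. Among 12 listed transcription factors of channel patterning, 11 were on the array and 9 were tested, 3 higher and 6 lower with a median of -0.049. Tbx5 read 7.86, 8.08 and 8.33 in NZB_W and 8.70 and 8.15 in NZW, in the order of the atrial markers within each group, and its difference of -0.33 was -0.055 without NZW array 1. Tbx3 differed by -0.39 (-0.20 without NZB_W array 1, -0.24 without NZW array 1) and Irx3 by 0.16 (0.26 without NZB_W array 3, 0.094 without NZB_W array 1).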

How the data were processed

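The deposited values are log2 expression levels, 1 per probe set and array, from the Affymetrix Mouse Genome 430 2.0 design. RNA was extracted with Trizol and cRNA made from 6 µg of total RNA, per the labels' protocols. RMA, GCRMA and Partek stand in the submitters' processing notes with no role or version, so the background correction used is unknown, and that choice affects dim probe sets most. No detection calls were used.

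Of 45101 probe sets, 64 controls were left out, and 34945 carry 1 gene symbol, 932 several and 9160 none in the platform annotation; the 254 probe sets of members each carry 1. Genes were tested when their brightest probe set exceeded the array median on at least 2 arrays. The values were tested without further normalization in limma 3.58.1 under R 4.3.3 (two-sided moderated test from lmFit and eBayes, no covariate), over 11902 genes with Benjamini-Hochberg adjustment and a threshold of 0.05. SE is the moderated one, SD is over arrays, and a fold is 2 to the power of the difference. The script was tested on simulated data. Alternatives changed the normalization, filter, probe set choice, variance model, array weights, replicate block and arrays used. Those on atrial marker level were added after seeing the data. The members and lists were chosen with earlier results of these data known. Named genes are the listed cardiac channels, the brightest member per class, 6 per direction with the smallest p, those nearest the array median, and 3 each of the partners and the transcription factors with the smallest p.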

Additional observations from a re-analysis of the deposited data

How the results depend on the processing

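No member passed the adjusted threshold under any alternative run; the number at an unadjusted p under 0.05 ran from 2 to 9. Of 716 values of 41 named genes under alternatives with a test, 41 turned sign, in 16 genes. In the atrial pairs, which have no test, 9 of 82 did: Cacna2d2 (-0.28) and Kcnk13 (0.32) in the low pair, and Kcnh2 (-0.11), Kcnip2 (-0.025), Kcnj11 (-0.12), Kcnj8 (0.0058), Kcnk3 (0.099), Kcnq1ot1 (0.084) and Scn7a (0.0066) in the high pair. The number of genes called in all, 1 as reported, was 5 at a threshold of 0.1 and 5 with the mean of all probe sets. It was 2 without suffixed probe sets (those with _s, _x or _a in the name) and 8 with array weights. With single NZB_W arrays left out it was 0 to 1.

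The replicate numbers shared by the groups are not stated to pair the animals. Deviations of same-numbered arrays from their group means correlated at -0.26 and 0.10. These values cannot decide whether animals were paired, since the deviations of the NZW arrays mirror each other. With the numbers as a replicate block (1 residual degree of freedom) 0 genes were called, the member median was 0.0 and the calcium pore median -0.044. Signs turned for Cacna1g (-0.026), Cacna2d2 (-0.46), Cacnb2 (0.061), Hcn2 (0.029), Kcnj8 (0.018) and Kcnk13 (0.015).

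The member median of -0.029 was 0.011 without the filter, -0.0089 with array weights, 0.0 and -0.049 in the low and high atrial pairs, and -0.058 to 0.0 with single arrays left out. For potassium pores (-0.062), the values were -0.013 without the filter, -0.088 without suffixed probe sets, 0.0 and -0.098 in the pairs and -0.075 to -0.018. Potassium auxiliary genes (0.11) gave 0.081 with the filter on all 5 arrays, 0.033 with the mean of probe sets, 0.086 without cross-matching ones, 0.088 with weights, 0.079 without both arrays, 0.23 and 0.042 in the pairs and 0.070 to 0.12. Calcium pores (-0.15) gave 0.023 without the filter, -0.29 with the mean of probe sets, -0.23 without suffixed ones and -0.037 with weights. They gave -0.29 in the high pair and -0.23 to -0.044 with single arrays left out. Calcium auxiliary genes (0.014) gave -0.051 with the mean of probe sets, -0.073 in the high pair and -0.11 to 0.043.

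Array weights turned Cacna1g (-0.0071), Cacna2d2 (-0.17), Cacnb2 (0.053), Hcn2 (0.025) and Kcnq1ot1 (0.0068). Leaving out both arrays turned Cacna1c (0.026), Cacna1g (-0.13), Cacna2d2 (-0.94), Cacnb2 (0.061), Hcn2 (0.034), Kcnh2 (-0.28), Kcnj8 (0.15) and Scn3b (-0.022). Another probe set turned Kcnq1ot1 (0.057), Scn7a (0.11) and Tbx3 (0.084, also without suffixed ones). With single arrays left out, sign turned in Cacna1g (-0.076 to 0.13), Cacna2d1 (-0.15 to 0.043), Cacna2d2 (-0.46 to 0.54), Cacnb2 (-0.23 to 0.061), Hcn2 (-0.13 to 0.029), Kcnh2 (-0.22 to 0.42), Kcnip2 (-0.0037 to 0.094), Kcnj11 (-0.0074 to 0.092), Kcnj8 (-0.16 to 0.10), Kcnk13 (-0.14 to 0.098), Kcnk3 (-0.12 to 0.049) and Kcnq1ot1 (-0.11 to 0.056). The cause was not tested. With 5 arrays and a median SE of 0.107, differences of the size of most members here could not be told from 0, and the precision of dim members is limited further by signal close to the array median.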

Other observations

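Several tested members read the same on most arrays: 4 of 54 (7.41%) had at least 4 arrays within 0.01 of each other on the log2 scale, beside 4.69% of all genes tested. Kcnj6, a GIRK pore best known from neurons, was at 4.97 on all 5.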
